A study of Mus musculus with 18 samples.

Results

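The comparison set pancreatic islets of 16-week-old C57BL/KsJ db/db mice against islets of 16-week-old lean C57BL/KsJ control mice. Its members were chosen by the strain and age that the labels give each sample, and 6 of the 18 arrays of the series met them, 3 from db/db and 3 from lean islets. All 18 arrays were Affymetrix Mouse Gene ST arrays of hand-picked islets, and the series title calls the obese strains diabetes-prone and diabetes-resistant. The db/db allele disrupts the leptin receptor in every tissue, while the labels give neither the Lepr genotype of the lean KsJ mice nor the sex, the number of animals behind an array or any pooling. The mice came from 1 breeding colony and ate freely. Replicates 1 and 2 of both groups stood in a table of 16 arrays, the larger table, and replicate 3 of both groups in a table of 2 arrays, the smaller table, from a related array design. A further pair of comparisons in the larger table serves as a background: islets of 16-week ob/ob against lean C57BL/6J mice, and islets of 6-week db/db against lean C57BL/KsJ mice, with 2 arrays in each group. All values are deposited log2 signals, so that a difference of 1 is a doubling of the signal, and levels are not compared between genes. The tables may not share a scale, so that tests took differences within a table and levels set side by side across them are descriptions.

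Leptin restrains appetite through the long form of its receptor, and mice without that form overeat, become obese and resist insulin. Beta cells respond at first by secreting and making more insulin. On the KsJ background they then fail, and the mice become severely hyperglycaemic. Failing beta cells are known to lose genes of the mature state, such as those for the transcription factor MafA and the glucose transporter GLUT2, and to show genes that mature beta cells keep low, such as Aldh1a3, Neurog3 and the peptide hormone genes Gast and Cck.

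The arrays of both groups carried islet RNA, since Ins2, Gcg and Sst lay between 11.60 and 13.25 on all 6 of them. They also carried other tissues in unequal amounts. The acinar list, 30 genes of digestive enzymes and their regulators, averaged 9.20, 10.15 and 10.40 in db/db islets, against 8.47, 11.68 and 11.48 in lean islets. The enterocyte list, 31 genes of the absorptive cells of the gut, averaged 5.88, 8.35 and 8.38 in db/db islets, against 4.01, 5.42 and 4.13 in lean islets. In the larger table replicate 2 thus held more acinar signal than replicate 1 in both groups, and in each table the enterocyte mean was higher on the db/db than on the lean arrays, most of all on db/db replicates 2 and 3. Xist, the RNA of the inactive X chromosome, stood at 9.31, 8.57 and 7.86 in db/db islets, against 3.24, 8.91 and 7.82 in lean islets. Uty, a gene of the Y chromosome, was at 7.86 on lean replicate 1 and between 2.29 and 2.68 on the other 5 arrays. Lean replicate 1 thus had the pattern of male islets and the other 5 arrays that of female islets. The lean group was mixed in this respect and the db/db group was not. Lean replicate 1 therefore cannot share its animals with lean replicates 2 and 3. Across genes, db/db replicates 1 and 2 correlated at r = 0.969, and lean replicates 1 and 2 at r = 0.902. The part of these differences between arrays in the results below was not tested, and the counts that follow are also given without single arrays. The leptin receptor gene Lepr gave dim signals on all arrays, with 3.04, 4.14 and 3.86 in db/db islets, against 2.84, 2.72 and 3.55 in lean islets. Its cluster does not separate the receptor forms and so does not check the genotype.

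**Figure D1:**
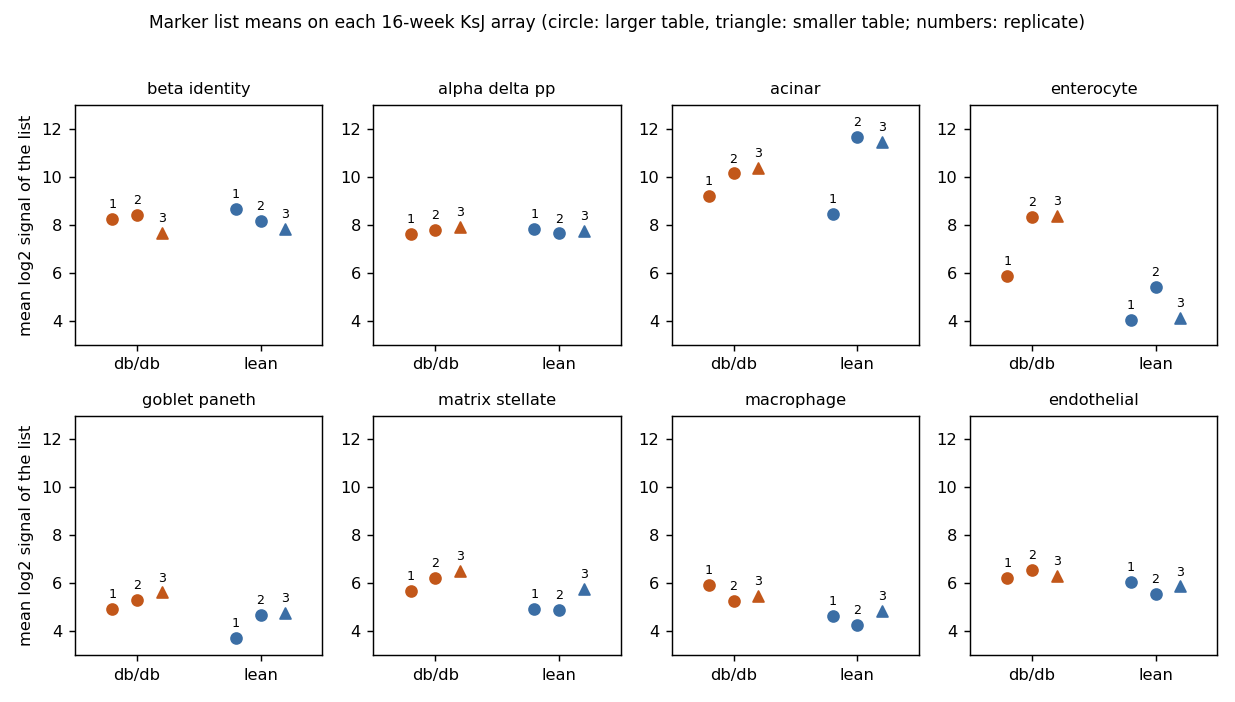
Mean log2 signal (vertical axis) of 8 marker lists on the 6 arrays, db/db islets left and lean islets right, with the replicate number above each point, circles for the larger and triangles for the smaller table. The enterocyte means of the 3 db/db arrays, 5.88 to 8.38, lie above the lean means of the same table, and lean replicates 2 and 3 have the highest acinar mean of their tables.

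Between db/db and lean islets, 2084 of 15526 genes tested were called, 13.4% of them, at an adjusted p below 0.05 in limma. Of these, 1836 were higher in db/db islets (11.8%) and 248 were lower (1.60%). On the X chromosome 90 of 507 genes tested were called. Whether a group's arrays stem from different animals is not stated in the labels, and the sex-linked genes set only lean replicate 1 apart. The p-values then measure only the spread between these samples, which may be technical in part. The fit took differences within each table: it used all 18 arrays, 1 mean per group and the table as a block. A called gene was counted as consistent in both tables if in the larger table its db/db signals did not overlap the lean signals and the smaller table's pair differed by at least 0.5 in the same direction. There were 1705 such genes (11.0%), 1495 higher in db/db islets (9.63%) and 210 lower (1.35%). The higher ones had a median log2 change of 0.90, with 612 at 1 or more and 91 at 2 or more, and the lower ones a median of -0.89, with 77 at -1 or less and 5 at -2 or less.

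These counts lean on the scale and on the arrays. The median signal of the tested genes was 5.93 and 5.69 on lean replicates 1 and 2, the lowest of the larger table. On db/db replicates 1 and 2 it was 6.10 and 6.21. The median change of all genes tested was 0.15, and after each array was centred on its own median it was -0.14. Centring left 591 genes higher (3.81%) and 837 lower (5.39%). Of the consistent genes, 579 of the 1495 higher and all 210 lower ones were then called in the same direction. Quantile normalization within each table gave 542 higher and 335 lower. Fitted to the 6 arrays alone, with 3 residual degrees of freedom, the test called 74 genes (0.477%), 71 of them higher and 3 lower, and 68 of the 74 were also in the consistent set. Without lean replicate 1 there were 4480 calls, and without lean replicate 2 there were 1244. Without db/db replicate 1 or 2 there were 1081 and 1045. Without both lean arrays of high acinar signal 118 genes were called, and without both db/db arrays of high enterocyte signal 43.

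The smaller table's pair did not enter the calls made in the larger table alone. In the larger table alone, 826 genes were called higher in db/db islets, and 623 of them (75.4%) also differed by at least 0.5 in the pair, as did 19.8% of all genes tested. Of 74 genes called lower there, 44 (59.5%) were at least 0.5 lower in the pair, as were 12.4% of all genes tested. Across genes, the differences within the 2 tables correlated at r = 0.712, and genes are not independent replicates. With the larger table reduced to 1 array a side, r was 0.667 for replicate 2 and 0.447 for replicate 1. It was 0.535 for db/db replicate 1 against lean replicate 2, and 0.526 for db/db replicate 2 against lean replicate 1. The labels carry no replicate numbers, so that such matching is arbitrary. The pair shares with replicate 2 its high acinar signal in both groups. Its enterocyte mean was higher in db/db islets, 8.38 against 4.13, as in the larger table. The part of either signal in the agreement was not tested.

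**Figure D2:**
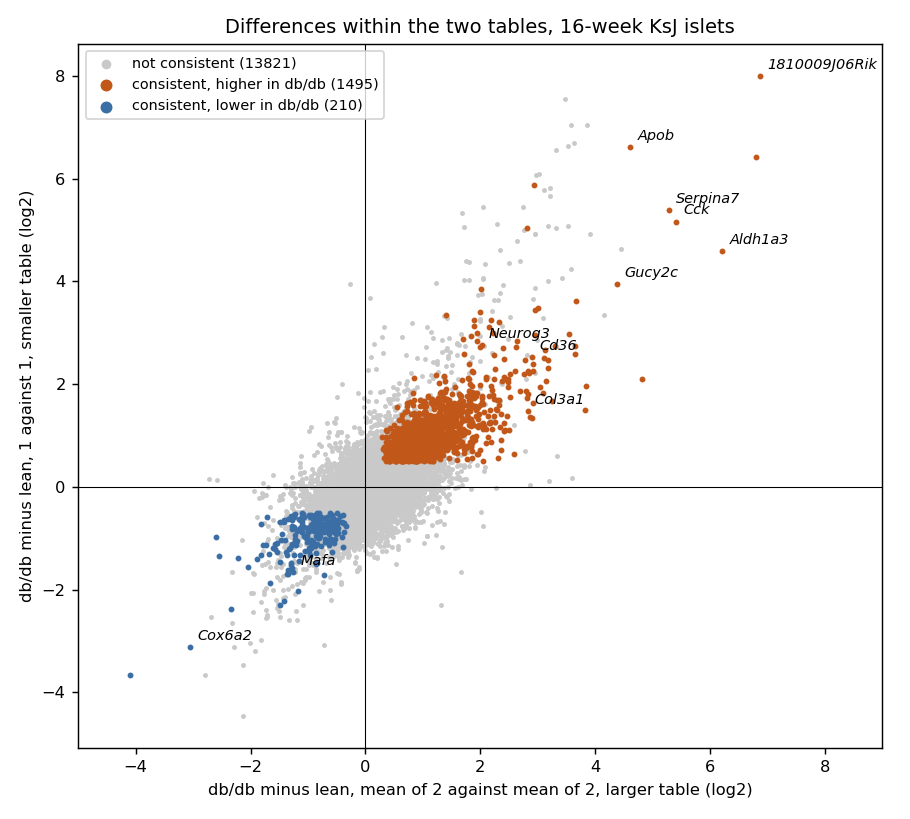
Each point is 1 of 15526 genes, with its db/db minus lean difference in the larger table on the horizontal and in the smaller table on the vertical axis (log2). The 1495 consistent higher genes fill the upper right and the 210 consistent lower genes the lower left, and 1810009J06Rik, Aldh1a3, Cck and Serpina7 lie far from the rest in both tables.

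Aldh1a3, Cck, Serpina7 and Gucy2c were among the genes that rose most in db/db islets, after a pair of predicted genes of the trypsin locus. Values are given for replicates 1, 2 and 3 in that order. Aldh1a3, which makes retinoic acid from retinaldehyde, had signals of 10.79, 10.94 and 8.58 in db/db islets, against 4.01, 5.29 and 3.99 in lean islets (log2 change 5.68 ± 0.91 SE, adjusted p = 0.00361). Cck, the gene of the peptide hormone cholecystokinin, stood at 9.83, 10.02 and 10.20 in db/db islets, against 4.37, 4.65 and 5.04 in lean islets (log2 change 5.33 ± 0.79 SE, adjusted p = 0.00298). Both were high on every db/db array and low on every lean array, and their groups were separated by several log2 units. Serpina7, a thyroxine-binding serpin, gave 10.91, 10.55 and 10.83 in db/db islets, against 6.33, 4.55 and 5.44 in lean islets (log2 change 5.32 ± 0.72 SE, adjusted p = 0.0022). Gucy2c, the guanylate cyclase receptor of the gut peptide guanylin, gave 10.22, 10.06 and 8.79 in db/db islets, against 6.43, 5.08 and 4.84 in lean islets (log2 change 4.24 ± 0.48 SE, adjusted p = 0.00135). Neither overlapped between the groups, and Cck, Aldh1a3, Serpina7 and Gucy2c also passed the test in the 6 arrays alone, with adjusted p of 0.000659, 0.0159, 0.0159 and 0.0159. Between db/db replicates 1 and 2 each of these 4 genes differed by less than 0.5. The enterocyte means of these arrays were 5.88 and 8.35, both above the lean means of that table, 4.01 and 5.42. The part of gut RNA in these 4 genes was not tested.

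**Figure D3:**
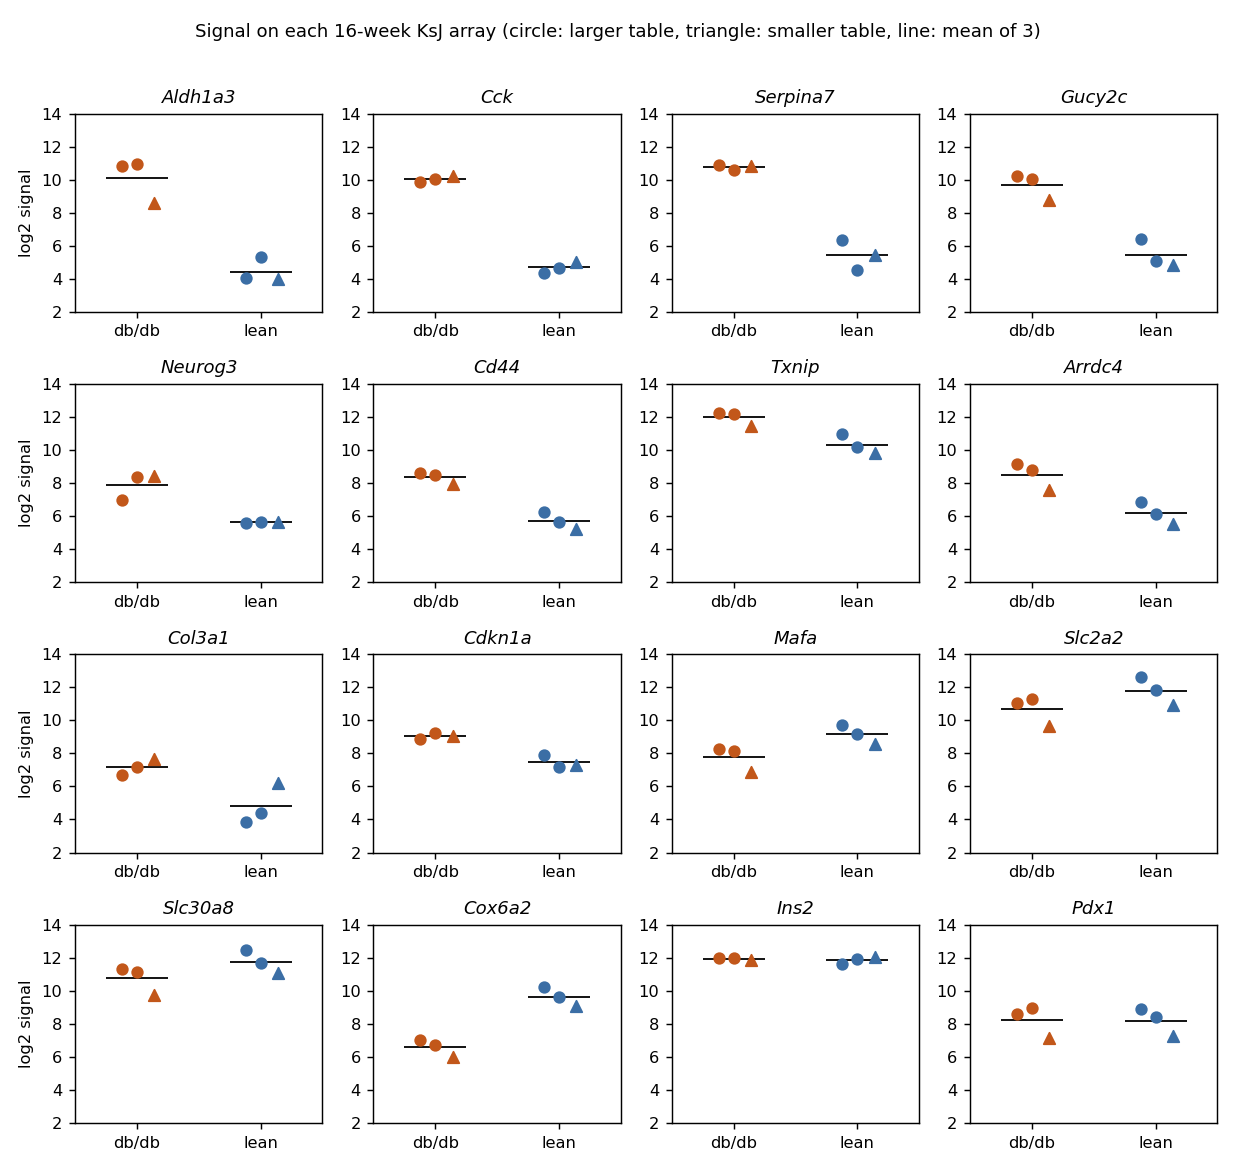
Log2 signal (vertical axis) of 16 genes on the 6 arrays, db/db islets left and lean islets right, with circles for the larger table, triangles for the smaller table and a line at the mean of 3. Aldh1a3, Cck, Serpina7 and Gucy2c are separated by over 3 units within each table, and Mafa, Slc2a2, Slc30a8 and Cox6a2 are lower on the db/db arrays within each table. Pdx1 overlaps in the larger table. Ins2 is higher on the db/db arrays of the larger table and lower on that of the smaller table.

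The next genes by size were of mixed kinds. Pdyn, the precursor of the opioid dynorphin, changed by 3.35, Tnfrsf23, a decoy receptor of the TRAIL ligand, by 3.36, Vstm2a by 3.31 and Dapl1 by 3.16 (adjusted p of 0.00175, 0.0077, 0.00229 and 0.00502). Sorcs2, a sorting receptor of the sortilin family, changed by 3.12, the atypical kinase gene Mapk4 by 3.12 and Ankrd34b by 2.98 (adjusted p of 0.00135, 0.00189 and 0.00135). All 7 lay higher on each db/db array than on the lean arrays of the same table. Csn3, the gene of kappa-casein, was at least 6.82-fold higher, a bound set by lean signals below the dim cutoff of the larger table, 2.99 (adjusted p = 0.0126). Apob, Mgam and Enpp3 were lower on db/db replicate 1 than on replicate 2, as was the enterocyte mean, at 5.88 and 8.35. Apob is itself a member of the enterocyte list, so that its signal enters this mean. The part of gut RNA in these 3 genes was not tested. Apob, which carries lipid out of enterocytes and hepatocytes, gave 5.53, 9.55 and 9.98 in db/db islets, against 2.53, 3.33 and 3.36 in lean islets, at least 33.2-fold higher in db/db islets (adjusted p = 0.0443). Mgam, a brush-border sugar enzyme, gave 6.41, 9.24 and 9.56 in db/db islets, against 3.98, 5.80 and 3.69 in lean islets (adjusted p = 0.0469), and the ectonucleotidase gene Enpp3 gave 6.06, 9.90 and 9.54 in db/db islets, against 5.18, 5.16 and 4.49 in lean islets (adjusted p = 0.0318). All 3 were low on db/db replicate 1, and none of them passed the test after median centring or in the 6 arrays alone.

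The dedifferentiation list, genes of endocrine progenitors and of beta cells that lose maturity, had 8 of 16 members called higher and 0 lower, with a median change of 0.75. This was a share of 50% higher, beside 11.8% and a median of 0.15 over all genes tested. These genes are known markers of failing islets and were chosen with earlier results of these data known. Aldh1a3, Cck and Serpina7 belong to it. Neurog3, the transcription factor of endocrine progenitors, stood at 6.97, 8.34 and 8.41 in db/db islets, against 5.61, 5.65 and 5.65 in lean islets (log2 change 2.27 ± 0.33 SE, adjusted p = 0.00285). Lean replicates 1 and 2 differed by less than 0.05, and db/db replicate 1 lay closest to them. Neurog3 stood at 7.09 and 6.46 in 6-week lean KsJ islets and at 7.05 and 7.24 in 16-week lean 6J islets. The signal of db/db replicate 1 was thus not above those of all lean islets. Gast, the gene of gastrin, stood at 7.37, 8.69 and 7.49 in db/db islets, against 4.74, 4.98 and 5.17 in lean islets (log2 change 2.89 ± 0.45 SE, adjusted p = 0.00328). Cd44, a hyaluronan receptor, stood at 8.62, 8.50 and 7.94 in db/db islets, against 6.22, 5.65 and 5.23 in lean islets (log2 change 2.66 ± 0.31 SE, adjusted p = 0.00135). Gast and Cd44 did not overlap between the groups in either table. Cd81 and Vim changed by 0.72 and 1.03 (adjusted p of 0.0271 and 0.0352), Vim without meeting the consistency criterion. Without lean replicate 2 the list had 7 higher calls, and 5 members passed in the 6 arrays alone. Of the list of genes that beta cells normally keep silent, 2 of 28 rose, Fcgrt by 1.61 and Igfbp4 by 1.16. That share, 7.14%, lay below the 11.8% of all genes tested.

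Single genes of the mature beta cell were called in both directions, with the share of higher calls near that of all genes. Of 37 tested members of the beta-cell identity list, 5 were called higher (13.5%) and 5 lower, beside 11.8% higher and 1.60% lower over all genes tested, with a median change of 0.12 that became -0.16 after centring. After centring 3 members were called higher and 9 lower. Mafa, which drives the insulin gene and maturation, had signals of 8.24, 8.16 and 6.91 in db/db islets, against 9.75, 9.17 and 8.57 in lean islets (log2 change -1.39 ± 0.26 SE, adjusted p = 0.00645). Slc2a2, the glucose transporter GLUT2, gave 11.03, 11.30 and 9.68 in db/db islets, against 12.60, 11.83 and 10.92 in lean islets (log2 change -1.12 ± 0.30 SE, adjusted p = 0.0295). Slc30a8, which loads zinc into insulin granules, gave 11.32, 11.16 and 9.77 in db/db islets, against 12.48, 11.71 and 11.06 in lean islets (log2 change -1.001 ± 0.24 SE, adjusted p = 0.0183). In each table the db/db arrays lay below the lean arrays for all 3 genes. In a bulk islet sample, fewer beta cells and less RNA per beta cell cannot be told apart. The cation channel gene Trpm5 fell by 1.20 (adjusted p = 0.0245).

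Cox6a2, a subunit isoform of cytochrome c oxidase, showed the most negative change among the genes with a full name. Its signals were 7.04, 6.71 and 5.98 in db/db islets, against 10.25, 9.60 and 9.10 in lean islets (log2 change -3.07 ± 0.36 SE, adjusted p = 0.00135), and it was 1 of the 3 genes lower in the 6 arrays alone. The signals of Cox6a2 were over 2 units lower on the db/db arrays of each table. In the list of respiratory chain genes, Cox6a2 was the only 1 of 37 members called lower, and 5 were called higher (13.5%, beside 11.8% over all genes tested), among them Ndufa1 at 1.41 and Cox5b at 0.97 (adjusted p of 0.0144 and 0.00618).

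Other beta-cell regulators did not pass the test. Pdx1 gave 8.58, 8.94 and 7.13 in db/db islets, against 8.88, 8.39 and 7.28 in lean islets (log2 change 0.04, adjusted p = 0.912), and Nkx6-1 gave 9.57, 10.27 and 8.39 in db/db islets, against 10.24, 9.87 and 8.61 in lean islets (log2 change -0.16, adjusted p = 0.591). Both overlapped between the groups in the larger table. Ucn3, which marks mature beta cells, changed by -0.36 ± 0.20 and G6pc2, a glucose-6-phosphatase of beta cells, by 0.36 ± 0.16 (SE, adjusted p of 0.246 and 0.153). After median centring Ucn3 had an adjusted p of 0.0394. Of the members that rose, Rfx6, a factor of islet development, changed by 0.99 and Cltrn, or collectrin, by 1.32 (adjusted p of 0.0112 and 0.00708). Gpr119, a lipid-sensing receptor, stood at 6.54, 7.39 and 7.29 in db/db islets, against 5.83, 5.11 and 6.12 in lean islets (log2 change 1.39 ± 0.22 SE, adjusted p = 0.00361). Iapp, the amyloid peptide released with insulin, stood at 12.72, 12.70 and 12.97 in db/db islets, against 12.49, 12.01 and 12.18 in lean islets (log2 change 0.57 ± 0.14 SE, adjusted p = 0.0217). Gpr119 and Iapp were higher on the db/db arrays within both tables, though the change of Iapp was small and lost the call after centring (adjusted p = 0.184).

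The hormone genes themselves were close between the groups. Ins2 stood at 12.01, 11.97 and 11.87 in db/db islets, against 11.60, 11.90 and 12.04 in lean islets (log2 change 0.11 ± 0.14, SE, adjusted p = 0.634). Gcg, Sst and Ppy changed by 0.05, 0.16 and -0.25 (adjusted p of 0.787, 0.393 and 0.291). These signals lay at 11.60 or above on every array, near the top of the scale, where an array can compress differences. Of the 16 tested genes of the other endocrine cells, 3 were called higher (18.8%, beside 11.8% over all genes tested). These were Gpr119, Ttr at 0.74 and Pyy at 0.43 (adjusted p of 0.0194 and 0.0356), and Pyy was not consistent in both tables.

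Secretory granule genes formed the list with the highest share called higher. Of 32 tested members, 18 rose and 2 fell, all of them consistent in both tables, with a median change of 0.67, beside 11.8% and 0.15 over all genes. Vgf, a granin-like secretory precursor, changed by 2.70, Chgb, or chromogranin B, by 1.31, Scg5 by 1.28 and Pam, which amidates peptides, by 1.32 (adjusted p of 0.00941, 0.00526, 0.00455 and 0.00557). Ptprn, the granule membrane protein IA-2, stood at 12.40, 12.57 and 11.73 in db/db islets, against 11.67, 10.89 and 10.06 in lean islets (log2 change 1.36 ± 0.21 SE, adjusted p = 0.00327). Slc18a1, a vesicular monoamine transporter, stood at 7.63, 7.59 and 6.72 in db/db islets, against 6.67, 5.88 and 5.33 in lean islets (log2 change 1.35 ± 0.21 SE, adjusted p = 0.00327). Both were higher on the db/db arrays of each table. Exocytosis genes were called too, with Cadps2 at 0.90, Syt4 at 1.44 and Snap25 at 0.86 (adjusted p of 0.00327, 0.0107 and 0.0142). The 2 that fell were Slc30a8 and Sytl4, a Rab effector of granule release, which changed by -1.25 (adjusted p = 0.0125). After median centring 8 of the 32 members were called higher, beside 3.81% of all genes tested. Without lean replicate 2 there were 13 higher calls. In the 6 arrays alone 0 passed, where 0.477% of all genes tested did.

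**Figure D4:**
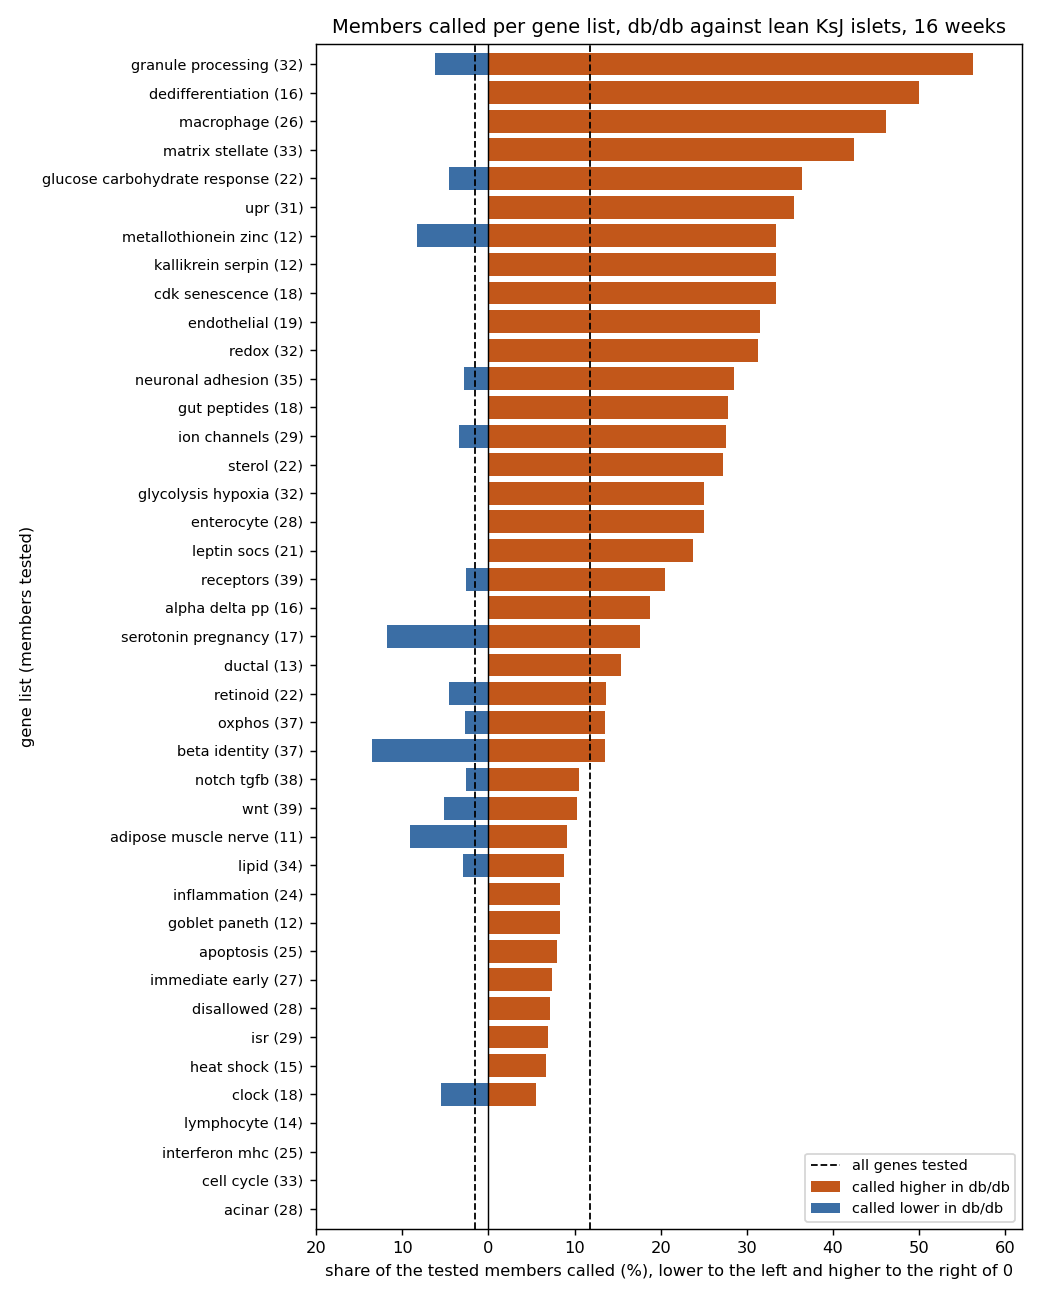
Share of the tested members of each list (number in parentheses) called higher in db/db islets, to the right, or lower, to the left, in percent, for lists with 10 or more tested members, with dashed lines at the shares of all genes tested, 11.8% and 1.60%. Granule, dedifferentiation, macrophage and matrix lists reach furthest to the right, and the beta-cell identity list has the longest bar on the left.

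Some of the genes that answer to glucose rose in db/db islets. Of 22 tested members of this list, 8 were called higher and 1, Slc2a2, lower, with a median change of 0.46. The share higher was 36.4%, beside 11.8% and a median of 0.15 over all genes tested. In many cells glucose acts on such genes through ChREBP, which binds with its partner Mlx to paired E-box-like elements. Txnip, which binds thioredoxin and is among the best known of these targets, stood at 12.23, 12.19 and 11.48 in db/db islets, against 10.94, 10.21 and 9.85 in lean islets (log2 change 1.64 ± 0.26 SE, adjusted p = 0.00361). Its relative Arrdc4, an arrestin-domain protein, stood at 9.17, 8.78 and 7.60 in db/db islets, against 6.85, 6.15 and 5.52 in lean islets (log2 change 2.34 ± 0.31 SE, adjusted p = 0.00184). Klf10, a repressor that also answers to glucose, stood at 7.65, 8.42 and 6.59 in db/db islets, against 6.96, 6.07 and 5.08 in lean islets (log2 change 1.52 ± 0.26 SE, adjusted p = 0.00468). In each table the db/db arrays lay above the lean arrays for all 3. Pklr, the pyruvate kinase of liver and islets, changed by 1.15, Tkfc by 1.498, G6pc3 by 0.92 and Me1, the cytosolic malic enzyme, by 0.77 (adjusted p of 0.0157, 0.0222, 0.0182 and 0.0374). After centring 3 members were called higher, and without lean replicate 2 5.

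The promoters of Txnip, Arrdc4 and Cck are shown because these genes were among those that rose and the list turns on an E-box-like element. They span 250 bases before to 50 after the annotated start, 300 in all, and come from RefSeq (GRCm38.p6). Txnip lies at chr3:96557707-96558006 on the plus strand, Arrdc4 at chr7:68749189-68749488 on the minus strand and Cck at chr9:121495645-121495944 on the minus strand. Capitals mark the motifs searched on both strands, the paired element, which is CACGNG, any 5 bases and CACGNG again, the E-box CACGTG and the cAMP-responsive sequence TGCGTCAGC.
Txnip: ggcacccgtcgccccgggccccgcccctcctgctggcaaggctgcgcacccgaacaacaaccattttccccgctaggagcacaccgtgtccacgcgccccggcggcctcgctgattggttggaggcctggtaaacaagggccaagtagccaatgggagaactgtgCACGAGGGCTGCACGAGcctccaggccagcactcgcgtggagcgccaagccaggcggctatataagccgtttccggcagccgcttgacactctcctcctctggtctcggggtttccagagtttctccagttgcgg
Arrdc4: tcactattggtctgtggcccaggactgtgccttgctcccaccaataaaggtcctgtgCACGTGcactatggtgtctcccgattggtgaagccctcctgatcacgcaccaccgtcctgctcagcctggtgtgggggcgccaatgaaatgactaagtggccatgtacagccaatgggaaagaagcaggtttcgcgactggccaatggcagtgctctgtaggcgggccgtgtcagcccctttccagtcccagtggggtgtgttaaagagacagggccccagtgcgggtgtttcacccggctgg
Cck: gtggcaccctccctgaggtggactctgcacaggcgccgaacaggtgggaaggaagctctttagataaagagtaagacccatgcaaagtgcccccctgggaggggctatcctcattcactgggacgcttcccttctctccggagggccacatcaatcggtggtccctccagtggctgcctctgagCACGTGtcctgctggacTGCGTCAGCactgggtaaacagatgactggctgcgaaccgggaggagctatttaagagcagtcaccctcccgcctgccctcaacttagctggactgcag
The Txnip window held the paired element, which begins at position -85 from the start, and 16 of 32851 RefSeq promoters of this length (0.0487%) hold it. The Arrdc4 window held CACGTG at -193 and no paired element, and 7.15% of all promoters hold that E-box. The Cck window held CACGTG at -66 and TGCGTCAGC at -49, the second of which occurs in 0.164% of all promoters, 54 in number. A match describes the letters of the window.

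Genes of endoplasmic reticulum folding rose in part. Of 31 tested members of the unfolded protein response list, 11 were called higher and 0 lower, with a median change of 0.51. The share higher was 35.5%, beside 11.8% over all genes tested. Ern1, the stress sensor IRE1, stood at 9.42, 9.31 and 9.04 in db/db islets, against 8.62, 8.66 and 8.39 in lean islets (log2 change 0.70 ± 0.14 SE, adjusted p = 0.00787). Dnajb9, a co-chaperone induced by IRE1 signalling, stood at 10.98, 10.94 and 10.60 in db/db islets, against 10.41, 9.88 and 9.69 in lean islets (log2 change 0.85 ± 0.17 SE, adjusted p = 0.0101). Both changes were below 1, and neither gene overlapped between the groups within a table. Wfs1, the protein altered in Wolfram syndrome, changed by 1.01, the secreted factor Manf by 0.64, Syvn1, a ligase of protein degradation, by 0.61 and the oxidase Ero1a by 0.71 (adjusted p of 0.0179, 0.0458, 0.0115 and 0.0289). Hspa5, the chaperone BiP, stood at 10.83, 10.24 and 9.70 in db/db islets, against 10.67, 10.03 and 9.01 in lean islets (log2 change 0.35, adjusted p = 0.262), and without lean replicate 1 its change was 0.58 (adjusted p = 0.0363). This list moved with the scale: after centring 1 member was called higher, after quantile normalization 0, and without lean replicate 2 5. Of 29 genes of the amino acid and integrated stress response, 2 rose, Trib3 by 0.74 and Sesn2 by 0.81. That share, 6.90%, lay below the 11.8% of all genes tested, and the list's median was 0.00. Ddit3, the stress factor CHOP, stood at 7.71, 6.79 and 6.04 in db/db islets, against 7.81, 6.80 and 5.93 in lean islets (log2 change 0.00, adjusted p = 0.996).

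Oxidative and hypoxic defence genes were among the called. Of 32 tested redox genes, 10 rose (31.2%, beside 11.8% over all genes tested) and 0 fell. Osgin1, an oxidative stress gene, stood at 7.74, 7.92 and 7.77 in db/db islets, against 6.24, 6.53 and 6.297 in lean islets (log2 change 1.45 ± 0.20 SE, adjusted p = 0.00218). Gclc, the limiting enzyme of glutathione synthesis, stood at 8.08, 8.06 and 7.70 in db/db islets, against 7.44, 7.32 and 6.65 in lean islets (log2 change 0.81 ± 0.12 SE, adjusted p = 0.00322). Both separated the groups. Mt3, a metallothionein, changed by 1.86, the haem oxygenase Hmox1 by 1.37 and the thioredoxin reductase Txnrd1 by 0.82 (adjusted p of 0.00528, 0.00811 and 0.00825). The redox list had a median of 0.23 that became -0.06 after centring. Of 32 genes of glycolysis and hypoxia, 8 rose (25.0%, beside 11.8% over all genes tested) and 0 fell, with a median of 0.35. Egln3, an oxygen-sensing hydroxylase, was at least 5.05-fold higher and Pfkfb3, an activator of glycolysis, at least 2.81-fold higher in db/db islets, with lean replicate 3 below the smaller table's dim cutoff of 3.59 (adjusted p of 0.006 and 0.00682). Epas1, the hypoxia factor HIF-2 alpha, changed by 1.54 (adjusted p = 0.00697). Ldha, which beta cells keep low, stood at 3.69, 4.55 and 4.89 in db/db islets, against 3.01, 4.73 and 4.17 in lean islets (log2 change 0.41, adjusted p = 0.651). In the fit that took both tissue marker means as covariates its change was -0.99 (adjusted p = 0.0397).

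In lipid metabolism, Cd36, a fatty acid transporter, showed the clearest difference, with 7.39, 7.38 and 7.10 in db/db islets, against 4.80, 4.17 and 4.56 in lean islets (log2 change 2.78 ± 0.36 SE, adjusted p = 0.00184). Its groups were over 2 units apart in both tables, and it passed in the 6 arrays alone (adjusted p = 0.0159). The lipid droplet gene Plin2 changed by 0.89 and the lipase-family gene Pnpla3 by 1.36, while Plin1 fell by 0.86 (adjusted p of 0.0277, 0.0109 and 0.0461). In the lipid list, 3 of 34 rose and 1 fell, and the share that rose, 8.82%, lay below the 11.8% of all genes tested. Of 22 sterol genes, 6 rose (27.3%, beside 11.8% over all genes tested) and 0 fell. Sqle, the squalene epoxidase, changed by 1.16, Dhcr7, the last enzyme of cholesterol synthesis, by 1.03 and Nsdhl by 0.61 (adjusted p of 0.00361, 0.00355 and 0.0258). After centring 2 sterol genes were called higher.

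Channels and receptors of the islet changed for single members. Of 29 channel genes, 8 rose (27.6%, beside 11.8% over all genes tested) and 1 fell. The potassium channel gene Kcnk16, which is typical of islets, changed by 1.03 and the sodium channel gene Scn3a by 1.52, while Kcnk9 was at least 3.31-fold higher over dim lean signals (adjusted p of 0.00567, 0.00482 and 0.00213). Of 39 receptor genes, 8 rose (20.5%, beside the same 11.8%) and 1 fell. Besides Gucy2c and Gpr119, the glucagon receptor gene Gcgr changed by 0.91 and the fatty acid receptor gene Ffar2 by 0.93 (adjusted p of 0.0465 and 0.0194). Chrna4, a nicotinic receptor subunit, had 3.77, 3.36 and 3.73 in db/db islets, against 5.25, 5.53 and 5.07 in lean islets (log2 change -1.66 ± 0.26 SE, adjusted p = 0.00327) and its db/db signals lay below the lean signals of the same table. Glp1r and Gipr, the incretin receptors, changed by -0.24 and -0.75 without passing the test (adjusted p of 0.242 and 0.159).

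Among genes of leptin, insulin and cytokine signalling, 5 of 21 rose (23.8%, beside 11.8% over all genes tested), 4 of them consistently in both tables. Irs2, an insulin receptor substrate, stood at 8.69, 8.91 and 7.87 in db/db islets, against 7.94, 6.53 and 6.51 in lean islets (log2 change 1.497 ± 0.32 SE, adjusted p = 0.0127). Il6ra, the receptor of interleukin 6, stood at 10.29, 10.41 and 9.86 in db/db islets, against 9.64, 9.04 and 8.29 in lean islets (log2 change 1.20 ± 0.18 SE, adjusted p = 0.00306). The db/db arrays lay above the lean arrays of the same table for both genes. In 6-week lean KsJ islets Irs2 stood at 7.24 and 7.90, and Il6ra at 10.10 and 10.32. Leprot, a transcript that shares its promoter region with Lepr, changed by 0.74 and the phosphatase gene Ptpn1 by 0.99 (adjusted p of 0.00626 and 0.0182). Of the genes of serotonin and pregnancy, Tnfrsf11b, or osteoprotegerin, rose by 2.94, and the amino acid enzyme Ivd and the amine oxidase Maob fell by 1.34 and 1.38 (adjusted p of 0.00387, 0.00361 and 0.0146).

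Some of the stromal, endothelial and macrophage genes rose in db/db islets. In the larger table the 16-week lean KsJ arrays had the lowest means of all 16 arrays for each of these 3 lists. The endothelial mean was 6.23 and 6.54 in 16-week db/db islets, against 6.06 and 5.56 in 16-week lean KsJ islets, and it was 6.65 and 6.68 in 6-week db/db islets, against 6.62 and 6.59 in 6-week lean KsJ islets. Of 33 genes of matrix and stellate cells, 14 were called higher and 0 lower, with a median change of 0.94. The share higher was 42.4%, beside 11.8% over all genes tested. Col3a1, a fibrillar collagen, stood at 6.68, 7.21 and 7.68 in db/db islets, against 3.83, 4.40 and 6.21 in lean islets (log2 change 2.38 ± 0.28 SE, adjusted p = 0.00135). Col1a1 stood at 6.88, 8.19 and 8.21 in db/db islets, against 4.57, 4.69 and 6.87 in lean islets (log2 change 2.38 ± 0.34 SE, adjusted p = 0.00272). Postn, the matrix protein periostin, stood at 6.05, 6.60 and 6.42 in db/db islets, against 4.53, 3.68 and 4.63 in lean islets (log2 change 2.08 ± 0.22 SE, adjusted p = 0.00135). In both tables the db/db arrays were the higher ones. Fn1 changed by 2.37, Thbs1 by 1.71, Bgn by 1.65 and the pericyte gene Rgs5 by 1.35 (adjusted p of 0.0369, 0.0142, 0.00488 and 0.00285). The list mean was 5.67, 6.23 and 6.51 in db/db islets, against 4.91, 4.89 and 5.77 in lean islets. After centring 8 members were called higher, and without lean replicate 2 also 8.

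All 26 tested macrophage genes had positive changes, and 12 of 26 were called higher (46.2%, beside 11.8% over all genes tested). Their median change was 1.04. Lgals3, or galectin 3, stood at 5.88, 5.82 and 6.69 in db/db islets, against 3.503, 3.55 and 5.09 in lean islets (log2 change 2.08 ± 0.36 SE, adjusted p = 0.00482). Fcer1g, a chain of Fc receptors, stood at 6.70, 6.59 and 7.002 in db/db islets, against 5.38, 5.56 and 6.13 in lean islets (log2 change 1.08 ± 0.21 SE, adjusted p = 0.00871). Both were higher on the db/db arrays of each table. Lyz2, the lysozyme of macrophages, changed by 1.79, Csf1r, their growth factor receptor, by 1.01, Mpeg1 by 1.64 and Gpnmb by 2.47 (adjusted p of 0.0319, 0.0145, 0.0161 and 0.0216). Of the markers that define the cells, Adgre1 changed by 0.22 and Cd68 by 1.19 without passing (adjusted p of 0.695 and 0.0534). The list mean was 5.92, 5.27 and 5.45 in db/db islets, against 4.63, 4.27 and 4.82 in lean islets. Without lean replicate 2 there were 6 calls, after quantile normalization 3 and after centring 6. Of 19 endothelial genes 6 rose (31.6%, beside 11.8% over all genes tested), and 3 did after centring. Plvap changed by 0.97, Eng by 1.15 and Cdh5 by 1.03 (adjusted p of 0.00631, 0.0095 and 0.0156). None of 14 lymphocyte genes and none of 25 interferon and antigen presentation genes was called in limma, and 2 and 2 of them had an unadjusted p below 0.05. Of 24 genes of inflammation 2 rose (8.33%, below the 11.8% of all genes tested), Cxcl14 by 1.19 and Lcn2 by 2.54 (adjusted p of 0.00901 and 0.0442).

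Markers of gut and acinar cells were not shared out evenly between the groups, and their part in the other results was not tested. All 28 tested enterocyte genes had positive changes, with a median of 3.35, and 7 were called higher (25.0%, beside 11.8% over all genes tested). Sis, the sucrase-isomaltase that defines these cells, stood at 5.62, 9.03 and 9.84 in db/db islets, against 2.48, 5.20 and 2.28 in lean islets. Vil1, the villus protein villin, stood at 9.37, 9.72 and 9.60 in db/db islets, against 8.52, 7.12 and 7.004 in lean islets (log2 change 2.01 ± 0.36 SE, adjusted p = 0.00567). Dpp4, the peptidase that cleaves incretins, changed by 1.64 and the peptidase gene Enpep by 2.24 (adjusted p of 0.00327 and 0.00488). None of 28 acinar genes was called in limma, 1 had an unadjusted p below 0.05, and their median change was -0.46. Of 6 Reg genes, secreted proteins of acinar and regenerating tissue, none was called in limma and 0 had an unadjusted p below 0.05, with changes from -2.02 for Reg3d to 2.78 for Reg3b. With the acinar and enterocyte means of each array as covariates, 1905 genes were called in all, 1570 higher and 335 lower.

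Genes of the cell cycle gave no call. Of 33 such genes 0 rose and 0 fell in limma, 2 had an unadjusted p below 0.05, and the changes lay between -0.54 and 0.54 with a median of 0.03. Mki67, a marker of dividing cells, stood at 4.92, 4.66 and 4.70 in db/db islets, against 5.08, 3.90 and 4.47 in lean islets (log2 change 0.28 ± 0.37, SE, adjusted p = 0.639), and the groups overlapped in the larger table. Of 18 genes of cycle inhibition and senescence, 6 rose (33.3%, beside 11.8% over all genes tested). After centring 3 of these 18 genes were called higher and 2 lower, beside 3.81% and 5.39% of all genes tested. In the 6 arrays alone 0 passed, where 0.477% of all genes tested did. Cdkn1a, the inhibitor p21, stood at 8.86, 9.24 and 9.08 in db/db islets, against 7.91, 7.17 and 7.27 in lean islets (log2 change 1.61 ± 0.26 SE, adjusted p = 0.00361). Igfbp3, which binds insulin-like growth factors, stood at 9.30, 9.19 and 8.09 in db/db islets, against 7.58, 6.39 and 6.83 in lean islets (log2 change 1.93 ± 0.34 SE, adjusted p = 0.00503). Bambi, a decoy receptor of the TGF-beta family, stood at 9.48, 9.69 and 8.51 in db/db islets, against 7.93, 5.59 and 6.70 in lean islets (log2 change 2.49 ± 0.52 SE, adjusted p = 0.0111). The groups of all 3 genes were apart in both tables, and lean replicate 1 lay above lean replicate 2 for each. Of 25 apoptosis genes 2 rose, Bak1 by 1.10 and Birc3 by 0.55.

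Signalling and structural genes added single strong members. Rspo4, an R-spondin that boosts Wnt signalling, changed by 2.96 and Tcf7l1 by 1.43 (adjusted p of 0.00176 and 0.00135). Of 39 Wnt genes, 4 were called higher (10.3%, beside 11.8% over all genes tested) and 2 lower. Acvr1c, the receptor ALK7 of beta cells, was at least 2.01-fold lower in db/db islets, where replicate 3 lay under the dim cutoff, and Tgfbr2 changed by 1.05 (adjusted p of 0.00816 and 0.0138). Dusp6, a phosphatase that limits ERK signalling, rose by 2.78, the stress co-chaperone Bag3 by 1.21 and the nuclear receptor gene Nr4a2 by 1.16 (adjusted p of 0.013, 0.00361 and 0.0167). Of 35 neuronal and adhesion genes, 10 rose (28.6%, beside 11.8% over all genes tested) and 1 fell. N-cadherin, Cdh2, changed by 0.99 and the tau gene Mapt by 1.18 (adjusted p of 0.00273 and 0.00691). Of 13 duct-cell genes 2 rose (15.4%, beside 11.8% over all genes tested), among them the keratin gene Krt7 at 1.11 (adjusted p = 0.00969). The serpin genes Serping1 and Serpini1 changed by 1.69 and 1.36 (adjusted p of 0.00304 and 0.00642). Of 18 clock genes, 1 was called higher (5.56%, beside 11.8% over all genes tested) and 1 lower. These were Npas2 at 1.28 and Ciart at -0.999 (adjusted p of 0.0462 and 0.0327).

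On the deposited scale fewer genes fell than rose, whereas after median centring 837 were lower and 591 higher. The largest falls after Cox6a2 were spread over many roles. Ppp1r1a, an inhibitor of protein phosphatase 1, stood at 8.33, 8.72 and 7.57 in db/db islets, against 10.09, 9.68 and 9.27 in lean islets (log2 change -1.48 ± 0.26 SE, adjusted p = 0.00534). Tmem215 stood at 6.01, 6.41 and 5.24 in db/db islets, against 7.997, 7.41 and 7.54 in lean islets (log2 change -1.76 ± 0.36 SE, adjusted p = 0.00941). Zim1, an imprinted zinc finger gene, stood at 7.54, 7.80 and 6.45 in db/db islets, against 9.36, 8.95 and 7.91 in lean islets (log2 change -1.48 ± 0.24 SE, adjusted p = 0.00403). These 3 genes were lower on the db/db arrays of both tables. Car15, a carbonic anhydrase, changed by -1.94, the cytochrome P450 gene Cyp4f39 by -2.06 and Carmil3 by -1.48 (adjusted p of 0.0122, 0.0479 and 0.0358). Cachd1, Edaradd, Sh2d4a, Plcl1 and Rnf212 formed a second kind, with lean replicate 2 the highest array of the larger table for each. Edaradd, an adaptor of the ectodysplasin receptor, stood at 5.33, 5.83 and 5.96 in db/db islets, against 5.86, 8.63 and 7.84 in lean islets (log2 change -1.74 ± 0.49 SE, adjusted p = 0.0366), and Cachd1 stood at 4.66, 5.42 and 5.49 in db/db islets, against 5.57, 8.60 and 7.04 in lean islets (log2 change -1.88 ± 0.55 SE, adjusted p = 0.0432). The lean values of both had the order of the acinar means of the lean arrays, 8.47, 11.68 and 11.48. Whether acinar RNA had a part in them was not tested. Without lean replicate 2, Cachd1, Edaradd and Rnf212 had smaller changes of -0.97, -0.97 and -1.13 and lost the call (adjusted p of 0.0764, 0.0781 and 0.12). Cyp4f39 and Carmil3 also lost the call there, but with changes of -2.12 and -1.55, no smaller than before (adjusted p of 0.0999 and 0.074).

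Clusters over 2 microRNA precursors were also lower. The cluster of Mir187 gave 5.25, 5.64 and 7.02 in db/db islets, against 8.82, 7.16 and 8.36 in lean islets (log2 change -2.14 ± 0.37 SE, adjusted p = 0.00485), and that of Mir181d gave 4.66, 4.90 and 6.75 in db/db islets, against 5.88, 7.24 and 7.88 in lean islets (log2 change -1.57 ± 0.30 SE, adjusted p = 0.0079). Both were lower on the db/db arrays within each table, and such clusters can read the primary or precursor transcript as well as the mature form. The mature 5′ product of Mir181d is shown to identify this microRNA, from RefSeq (GRCm38.p6), at chr8:84178759-84178781 on the minus strand, 23 bases long, with the seed, bases 2 to 8, in capitals.
mmu-miR-181d-5p: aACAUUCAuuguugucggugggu

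The same contrast in ob/ob islets of 16 weeks gave 107 called genes (0.689%), and that in db/db islets of 6 weeks gave 3 (0.0193%), each from 2 arrays a group. The 6-week comparison had fewer arrays, and its lean arrays are others than those of 16 weeks. Of the 1495 genes consistently higher in 16-week db/db islets, 12 were called higher in ob/ob islets, where their median change was 0.23, and their median in 6-week db/db islets was 0.20. Of the 210 lower genes, 6 were called lower in ob/ob islets. Aldh1a3 changed by 5.77 ± 1.12 in ob/ob islets (SE, adjusted p = 0.0455), where it stood at 10.43 and 10.17 in ob/ob islets, against 4.31 and 4.76 in lean 6J islets. Osgin1 and Zim1 also changed in the same direction there, by 1.75 and -2.37 (adjusted p of 0.0223 and 0.0223). Cck, Serpina7 and Gucy2c had changes of 2.57, 3.74 and 2.71 in ob/ob islets that did not pass (adjusted p of 0.2, 0.0699 and 0.0573).

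A test of the difference between the db/db and the ob/ob effect at 16 weeks called 46 genes (0.296%), 41 with the more positive change in db/db and 5 with the more negative. Of these, 31 were in the consistent higher and 3 in the consistent lower set. Strain and model cannot be told apart here. Sorcs2 changed by 3.12 in db/db and -0.26 in ob/ob islets, a difference of 3.38 ± 0.58 (SE, adjusted p = 0.0473). In the 6J comparison it stood at 7.09 and 5.56 in ob/ob islets, against 6.48 and 6.69 in lean 6J islets, and these groups overlapped. Postn differed by 2.51 ± 0.35 (adjusted p = 0.0305), Klf10 by 2.22 ± 0.41 (adjusted p = 0.0489) and Gpr119 by 1.92 ± 0.35 (adjusted p = 0.0489). Their changes were 2.08, 1.52 and 1.39 in db/db and -0.43, -0.70 and -0.54 in ob/ob islets. These differences also rest on the 16-week lean KsJ arrays. On those of the larger table Gpr119 stood at 5.83 and 5.11, against 6.91 and 7.07 in 6-week lean KsJ islets. Neurog3 and Mafa, at 2.81 and -0.95, did not pass this test (adjusted p of 0.0506 and 0.233). The count of 46 varied between 2 and 2470 over the alternatives run.

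Sh2d5, an adaptor gene, was the 1 gene (0.00644% of those tested) that passed the test of the difference between the 16-week and the 6-week db/db effect and was chosen after its values were seen. It stood at 7.21, 6.97 and 6.41 in db/db islets, against 5.47, 5.41 and 4.73 in lean islets (log2 change 1.66, adjusted p = 0.000106). Its effect exceeded that at 6 weeks by 1.93 (adjusted p = 0.0035) and that in ob/ob islets by 1.77 (adjusted p = 0.00854). At an unadjusted p below 0.05, 2418 genes differed in the age test and 3059 in the model test, so that few calls there do not show equal effects.

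**Figure D5:**
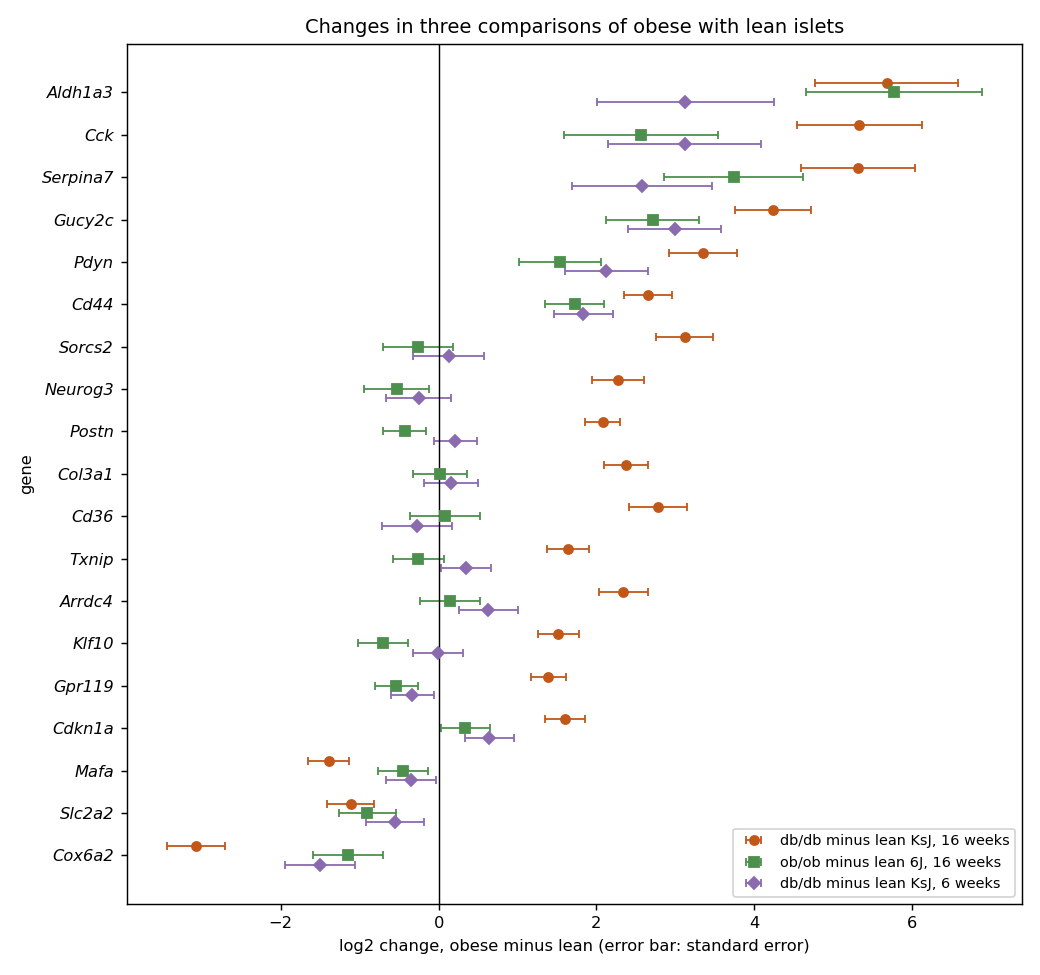
Log2 change with its standard error (horizontal axis) of 19 genes in 16-week db/db (circles), 16-week ob/ob (squares) and 6-week db/db islets (diamonds), each against its own lean group. Aldh1a3, Cck, Serpina7, Gucy2c, Pdyn and Cd44 are positive in all 3, whereas Sorcs2, Neurog3, Postn, Col3a1 and Cd36 lie near 0 or below it in the other 2 comparisons.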

How the data were processed

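Per the labels, RNA of hand-picked islets was hybridised to 1-colour Affymetrix arrays. The authors deposited log2 signals per transcript cluster in 2 tables, of 16 and 2 arrays, with 41034 clusters each. MAS5, RMA and Partek appear in the submitters' processing notes; which step each served, and whether the tables were normalized together, is not given in the sources used here. MAS5 and RMA correct background differently, which bears most on dim genes, and the files carry no detection calls.

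The platform annotation gave 1 gene for 23521 clusters, and symbols were updated through Entrez IDs in the GRCm38.p6 gene table. The cluster with the highest mean stood for a gene, which gave 22180 genes, and genes under the 30th percentile of the mean (log2 of 2.99 in the larger and 3.59 in the smaller table) were left out. limma 3.58.1 in R 4.3.3 fitted 8 group means and the table as a fixed block to 18 arrays (9 residual degrees of freedom), with eBayes and two-sided Benjamini-Hochberg adjusted p at 0.05 over 15526 genes. Where a group lay under its table's cutoff, the bound of a fold was taken with signals raised to that cutoff. The number of arrays limits the precision.

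The samples, 44 gene lists and tests were chosen with earlier results of these data known. Named genes were the 15 most positive and 15 most negative consistent genes without predicted ones, up to 3 called members of each list by smallest p, and a preset group of islet genes and controls, 132 in all. Other list members are named as examples, chosen after their values were seen. Alternatives were other filters, normalizations, variance models and cluster rules, covariates for tissue markers and for Xist, the 6 arrays or the larger table alone, other sizes asked of the pair, and each array left out. Other alternatives, which were chosen after seeing the data, omitted the lean arrays of high acinar or the db/db arrays of high enterocyte mean. Figures were drawn with matplotlib 3.10.9.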

Additional observations from a re-analysis of the deposited data

Results flagged for a closer look

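The db/db effect in KsJ islets differed from the ob/ob effect in 6J islets for 4 of the named genes, by a limma test of the difference at 16 weeks. Strain and model change together in this test. The db/db effect exceeded the ob/ob effect by 3.38 on the log2 scale for the sorting receptor gene Sorcs2 (adjusted p = 0.0473), which stood at 8.44, 8.07 and 8.36 in db/db islets, against 5.85, 4.74 and 4.93 in lean islets. It exceeded it by 2.51 for the matrix gene Postn (adjusted p = 0.0305), with 5.26 and 5.19 in ob/ob islets, against 5.63 and 5.68 in lean 6J islets. For the glucose-responsive repressor gene Klf10 the difference was 2.22 (adjusted p = 0.0489), with 6.16 and 6.70 in ob/ob islets, against 7.31 and 6.95 in lean 6J islets. For the lipid receptor gene Gpr119 it was 1.92 (adjusted p = 0.0489), with 7.56 and 7.42 in ob/ob islets, against 7.96 and 8.09 in lean 6J islets. All 4 were among 46 genes called in this test, a count that moved strongly with the processing. In the larger table Gpr119 stood at 6.54 and 7.39 in 16-week db/db islets, against 5.83 and 5.11 in 16-week lean KsJ islets. Its 6-week lean KsJ values were 6.91 and 7.07. Postn stood at 6.05 and 6.60, against 4.53 and 3.68, and its 6-week lean KsJ values were 5.95 and 5.87. Sorcs2, Klf10 and Postn were higher on these db/db arrays than on the lean KsJ arrays of either age. Gpr119 on db/db replicate 1 lay below its 6-week lean KsJ values.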

How the results depend on the processing

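The count of 2084 called genes was 74 in the 6 arrays alone, 900 in the larger table alone and 877 after quantile normalization. It ranged from 900 to 4480 with 1 array left out: it was 4480, 1244 and 900 as lean replicate 1, 2 or 3 was dropped, and 1081, 1045 and 900 as db/db replicate 1, 2 or 3 was. Leaving out replicate 3 of either group equals the larger table alone, since the block absorbs the array left over. It was 118 without the lean arrays of high acinar mean and 43 without the db/db arrays of high enterocyte mean, where fewer arrays entered. Median centring gave 1428 (591 higher, 837 lower). With Xist as a covariate it was 2608. The count of 1705 genes called and consistent in both tables was 74 in the 6 arrays alone, 797 after quantile normalization and 641 when the pair had to differ by 1, and it ranged from 996 to 2859 with 1 array left out: dropping lean replicate 1 or 2 gave 2859 and 1117, and dropping db/db replicate 1 or 2 gave 1024 and 996. The larger table alone and the settings that left out arrays by acinar or enterocyte mean have no consistency count, since no pair remains.

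The count of 46 genes whose effect differed between db/db and ob/ob islets was 2 in the larger table alone, 8 without a filter, 102 with a filter at the 50th percentile, 3 after quantile normalization, 13 after centring, 93 with eBayes with trend and robust, 2054 with array weights, 30 with the mean over clusters, 4 and 8 without the high acinar and the high enterocyte arrays, and from 2 to 2470 with 1 array left out: dropping lean replicate 1 or 2 gave 2470 and 16, db/db replicate 1 or 2 gave 27 and 3, and replicate 3 of either group gave 2. The count of 1 gene for the age difference was 0 after centring, 3 and 5 without the same arrays, and from 1 to 1527 with 1 array left out: 1527 without lean replicate 1 and 4 without db/db replicate 1. The cause of these moves was not tested.

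Of the 117 named genes that were called, none changed sign under any alternative run, and between 4 (without the high enterocyte arrays) and 116 (mean over clusters) kept the call among alternatives that tested all of them. Some genes that had not been called changed sign. After centring these were Ins2 (-0.179), Gcg (-0.232), Sst (-0.124), Pdx1 (-0.247), Ddit3 (-0.281) and Mki67 (-0.007), after quantile normalization Pdx1 (-0.246) and Ddit3 (-0.282), and with array weights Ins2 (-0.044) and Pdx1 (-0.078). In the larger table alone it was Ddit3 (-0.052), and with the marker covariates Ldha (-0.990), which then passed the test in limma (adjusted p = 0.0397), Xist (-0.350) and Uty (0.492). Without the high acinar arrays they were Pdx1 (-0.118), Hspa5 (-0.132), Ddit3 (-0.554) and Mki67 (-0.294), and without the high enterocyte arrays Pdx1 (-0.052) and Ldha (-0.183). With single arrays left out Ins2 ranged from -0.020 to 0.243, Pdx1 from -0.130 to 0.152, Nkx6-1 from -0.371 to 0.027, Ddit3 from -0.269 to 0.306, Ldha from -0.040 to 0.942, Mki67 from -0.069 to 0.609 and Uty from -3.027 to 0.043. Lean replicate 1 was the array left out where the sign of Ins2, Ldha and Uty changed, lean replicate 2 for Mki67 and db/db replicate 1 for Nkx6-1. Genes that gained a call were Ucn3 after centring (-0.645, adjusted p = 0.0394) and, without lean replicate 1, G6pc2 (0.547, adjusted p = 0.0121) and Hspa5 (0.582, adjusted p = 0.0363). No paired analysis was possible because the labels carry no replicate numbers. The files hold no background signal, so that the reliability of dim genes is unknown.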

Other observations

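The largest positive changes in 16-week db/db islets belonged to a pair of predicted genes of the trypsin locus on chromosome 6, which the rule for named genes left out and which were chosen after their values were seen. 1810009J06Rik (6:40964772-40968427, GRCm38.p6) stood at 12.62, 12.55 and 12.80 in db/db islets, against 5.23, 6.18 and 4.80 in lean islets (log2 change 7.25 ± 1.10 SE, adjusted p = 0.00321). Gm2663 (6:40995822-40999479) stood at 12.43, 12.37 and 11.70 in db/db islets, against 5.41, 5.77 and 5.28 in lean islets (log2 change 6.68 ± 1.07 SE, adjusted p = 0.00361). Both passed in the 6 arrays alone (adjusted p of 0.00214 and 0.000419), and Gm5771 of the same locus changed by 3.65 (adjusted p = 0.00677). The acinar trypsin genes nearby did not move with them: Prss2 stood at 8.32, 10.08 and 10.57 in db/db islets, against 8.09, 12.29 and 12.10 in lean islets, and Try4 at 11.78, 11.92 and 12.89 in db/db islets, against 10.55, 12.48 and 13.28 in lean islets, with adjusted p of 0.479 and 0.934. In ob/ob islets of 16 weeks 1810009J06Rik stood at 9.16 and 8.06 in ob/ob islets, against 3.62 and 3.04 in lean 6J islets, a change of 5.28 that did not pass (adjusted p = 0.0869). In 6-week KsJ islets it stood at 7.61 and 10.65 in db/db islets, against 4.25 and 3.62 in lean islets. These genes have close relatives, and which of them a cluster reads is uncertain.

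A further 4 genes outside the lists were also far apart between the groups and were chosen after their values were seen. Slc38a11, an amino acid transporter gene, stood at 6.79, 6.54 and 6.83 in db/db islets, against 4.29, 4.25 and 4.13 in lean islets (log2 change 2.495 ± 0.29 SE, adjusted p = 0.00135). Sorl1, a sorting receptor of the same family as Sorcs2, stood at 8.78, 8.56 and 7.87 in db/db islets, against 6.93, 6.69 and 5.91 in lean islets (log2 change 1.89 ± 0.20 SE, adjusted p = 0.00135). Lipa, the lysosomal acid lipase, stood at 8.22, 8.26 and 8.20 in db/db islets, against 6.64, 5.99 and 6.44 in lean islets (log2 change 1.87 ± 0.27 SE, adjusted p = 0.00285). Lgals3bp, a secreted glycoprotein that binds galectin 3, lay between 11.87 and 12.22 in db/db islets, against 10.16 to 10.81 in lean islets (log2 change 1.52 ± 0.15 SE, adjusted p = 0.00135). All 4 separated the groups within each table and passed in the 6 arrays alone (adjusted p of 0.0159, 0.0266, 0.0469 and 0.0487).

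The brush-border genes Tm4sf20 and Slc26a3 passed the test in the 6 arrays alone (adjusted p of 0.0159 and 0.0276) but not over all 18 arrays (adjusted p of 0.0619 and 0.0572). The enterocyte list, which holds neither gene, averaged 5.88, 8.35 and 8.38 in db/db islets, against 4.01, 5.42 and 4.13 in lean islets. It averaged 4.12 and 9.65 on the 6-week lean 6J arrays.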
